A study of Mus musculus with 6 samples.

Results

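Progesterone prepares the uterus for the embryo by binding its receptor, a nuclear transcription factor, in the epithelium, stroma and muscle. In the epithelium and stroma the receptor raises a set of genes before implantation, and several of these have long served as readouts of the hormone's action. The genes described here are 9 such targets outside the hedgehog and EGF families, chosen by name: Acod1, Calca, Lrp2, Il13ra2, Alox15, Gata2, Sox17, Zbtb16 and Calb1. All 9 matched 1 gene identifier each among the 56748 rows of the tables, and all 9 were among the 16737 genes with enough counts to be tested.

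RNA from mouse uterus was sequenced on day 4 of pregnancy at 1600 h, in 3 control libraries labelled WT and in 3 libraries labelled as Zip10 conditional knockout (cKO). Zip10 is the zinc importer encoded by Slc39a10. The labels name no age, strain, driver of the deletion or deleted exon, and do not say whether each library came from a separate animal, so p-values measure the spread between these samples, which may be technical. The series title poses the question of progesterone responsiveness.

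Total expected counts ran from 19643093 to 22809577 per library. The total of Slc39a10 overlapped between the groups, at 54.6 to 70.4 CPM in controls and 39.5 to 79.8 CPM in the cKO libraries (CPM here is the count scaled by library total and TMM factor); reads of exons that remain also count in it, so it does not check the labels, and directions below are those of the libraries labelled cKO. The library cKO 1 stood apart on the first axis of a multidimensional scaling plot and had 3.43% of its counts from mitochondrial genes, against 4.50% to 4.84% in the other 5. Epithelial, stromal, smooth muscle and endothelial markers were all detected.

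At the threshold of 0.05 on edgeR's adjusted p, 0 of the 9 targets were called, against a background of 0% of all tested genes. Of the 9, 6 had a log2 fold change below 0 and 3 above 0, and the median was -0.17; over all tested genes 50.6% were below 0 and the median was -0.00244. Calca and Acod1 had the lowest fold changes, Zbtb16 the highest, and Alox15 and Il13ra2 were near 1-fold. At an unadjusted p under 0.05 there was 1 target lower (Acod1; background 1.98% of all genes) and 1 higher (Zbtb16; background 4.48%), against 6.46% of all genes in either direction. The groups did not overlap for Calca, where the cKO libraries lay below (background 5.78%), and for Zbtb16, where they lay above (background 6.93%), against 12.7% of all genes in either direction.

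**Figure D1:**
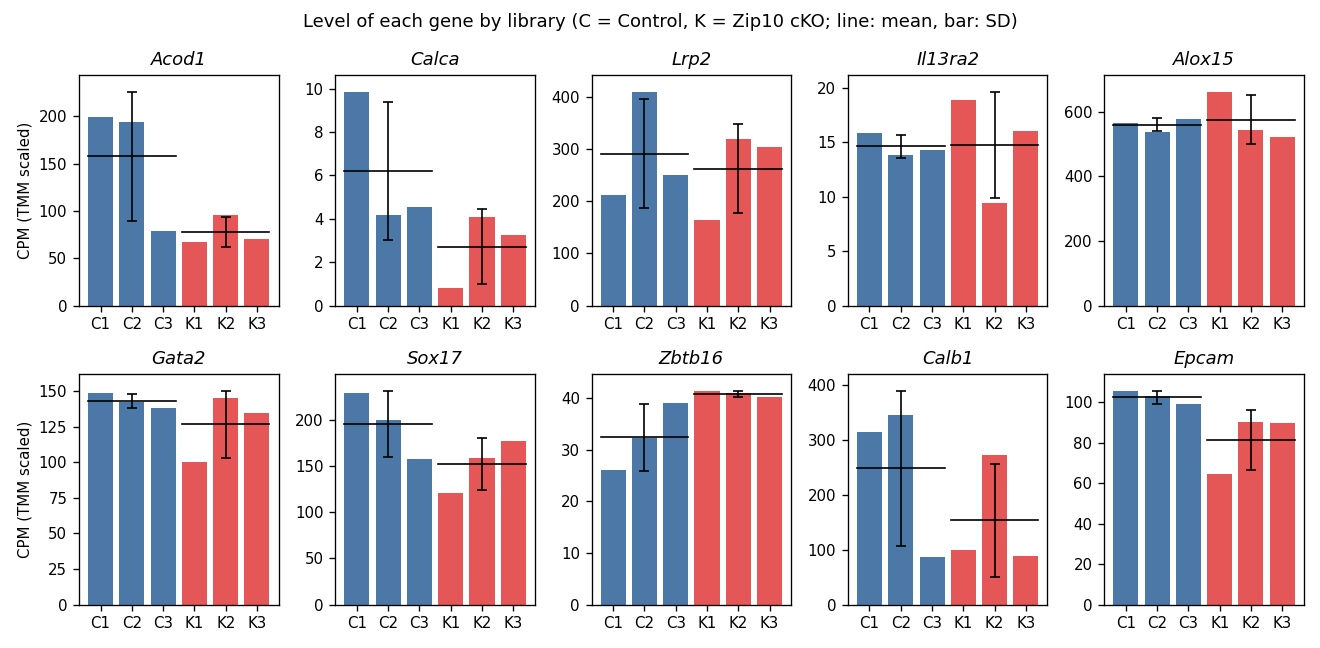
Level of the 9 progesterone targets and of the epithelial marker Epcam in each library, in TMM-scaled CPM on linear axes from 0; lines are group means and bars the SD (n = 3 each). Acod1 stands at 199.8 and 194 CPM in controls 1 and 2 and at 79.2 CPM or less in control 3, cKO 1 and cKO 3; Calb1 is high in controls 1 and 2 and cKO 2.

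Acod1 (ENSMUSG00000022126) encodes the mitochondrial enzyme that makes itaconate and is raised by progesterone in the luminal epithelium before implantation. Its level was 199.8, 194 and 79.2 CPM in controls 1, 2 and 3; in cKO 1, 2 and 3 it was 67.3, 96.3 and 70.4 CPM. Controls 1 and 2 were high and the other 4 libraries low, and control 3 lay below cKO 2, so the groups overlapped. Its fold (cKO over control, here and below) was 0.494, and the 95% interval reached from 0.288 to 0.848 (edgeR adjusted p = 0.747). The log2 fold change was -1.35 without control 3 and -0.82 without control 1. DESeq2 gave the smallest adjusted p of all the settings tried, 0.110, and those adjusted p-values ran up to 0.989.

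Calca (ENSMUSG00000030669) encodes calcitonin, a peptide hormone that progesterone induces in uterine glands, and from other transcripts the neuropeptide CGRP. The gene total covers both, over 7 transcripts in the tables. Calca was at 9.85, 4.20 and 4.53 CPM in the controls and at 0.808, 4.10 and 3.28 CPM in the cKO libraries. Control 1 was the highest and cKO 1 the lowest by far, while the other 4 libraries lay close together; the groups were apart only by the step from 4.10 to 4.20 CPM. These levels rest on 17 to 224 counts per library, the fewest among the 9 genes. The fold was 0.440, with an interval from 0.178 to 1.09 (edgeR quasi-likelihood test, adjusted p = 0.747). Leaving out control 1 gave a log2 fold change of -0.69 and leaving out cKO 1 one of -0.75, against -1.18 over all 6. Of 8 gland markers, 4 had a log2 fold change above 0 and 4 below (median 0.12, and -0.50 without cKO 3). The part of glands in the Calca difference was not tested.

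RefSeq promoter windows (GRCm38.p6, 250 bases before to 50 after the start) were held for 5 of the 9 genes, Acod1, Calca, Gata2, Il13ra2 and Lrp2, with 6 windows in all. The windows of the 2 genes with the lowest fold changes and of Il13ra2, whose fold was near 1, are printed so that their upstream sequence can be set beside their levels. Capitals mark AGATAA on either strand, the site read by GATA factors such as Gata2.
Acod1, chr14:103046762-103047061, plus strand: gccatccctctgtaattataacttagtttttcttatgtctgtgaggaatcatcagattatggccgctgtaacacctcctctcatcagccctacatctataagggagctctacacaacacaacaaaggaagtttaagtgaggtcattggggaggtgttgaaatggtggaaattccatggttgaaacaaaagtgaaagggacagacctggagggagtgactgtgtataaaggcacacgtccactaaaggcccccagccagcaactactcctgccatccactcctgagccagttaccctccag
Calca, chr7:114636308-114636607, minus strand: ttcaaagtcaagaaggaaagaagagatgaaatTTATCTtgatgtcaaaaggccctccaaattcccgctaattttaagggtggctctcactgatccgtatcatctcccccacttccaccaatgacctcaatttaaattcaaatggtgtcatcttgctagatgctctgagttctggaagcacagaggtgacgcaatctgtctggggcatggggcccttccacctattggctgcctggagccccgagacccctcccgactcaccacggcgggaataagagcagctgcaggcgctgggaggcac
Il13ra2, chrX:147429143-147429442, minus strand: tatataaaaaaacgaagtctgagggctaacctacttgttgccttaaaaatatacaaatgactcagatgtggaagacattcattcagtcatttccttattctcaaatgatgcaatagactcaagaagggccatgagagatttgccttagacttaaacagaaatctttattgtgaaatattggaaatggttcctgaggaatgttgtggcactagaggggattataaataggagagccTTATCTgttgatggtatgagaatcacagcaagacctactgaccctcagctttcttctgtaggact
AGATAA was found in the windows of Calca, 218 to 213 bases before the start, and of Il13ra2, 15 to 10 bases before it, both on the opposite strand to the gene, and in 11.2% of all 32851 windows. The full palindrome read by the progesterone and glucocorticoid receptors was searched on both strands and is in none of the 6 windows and in 0.475% of all. The single arm AGAACA of that palindrome is in none of the 6 and in 19.0% of all, and the SOX site ACAATGG in none and in 3.66% of all. These letters were searched in this window alone, and a match is no evidence of binding.

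Calb1 (ENSMUSG00000028222) encodes a calbindin, a cytosolic calcium-binding protein of the luminal epithelium. It was at 313, 344 and 85.9 CPM in controls 1, 2 and 3, and at 98.9, 271 and 89.1 CPM in cKO 1, 2 and 3. Both groups held high and low libraries: 3 stood at 271 CPM or above and 3 at 98.9 CPM or below, with nothing between. The highest library was 4.01 times the lowest. Its spread within groups, an SD of 1.01 on the log2 scale, was larger than that of 98.4% of all tested genes (the median gene had 0.202). The fold was 0.618 and its interval, 0.221 to 1.73, had the largest SE of the 9 on the log2 scale, 0.62. The log2 fold change was -1.40 without cKO 2 and -0.38 without control 2. S100g, which encodes another calcium-binding protein of the uterus, had no such gap, at 180 to 284 CPM in controls and 162 to 237 CPM in cKO libraries.

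Alox15 (ENSMUSG00000018924) encodes a lipoxygenase that oxygenates arachidonic acid. With 564, 538 and 578 CPM in the controls and 661, 543 and 520.4 CPM in the cKO libraries it varied least of the 9. All but cKO 1 stood within the span of 520.4 to 578 CPM. Its fold was 1.03, with an interval from 0.848 to 1.24, so a fall below 0.848-fold lies outside the 95% interval. The lipoxygenase genes Alox12e and Alox12 had log2 fold changes of 0.09 ± 0.20 and 0.51 ± 0.17 (SE). Alox12 averaged 12.3 CPM over the controls against 17.5 CPM over the cKO libraries. Its cKO libraries lay above all controls (background 6.93% of all genes, edgeR adjusted p = 0.747). Alox5, at 0.396 to 1.84 CPM in controls and 1.38 to 3.37 CPM in cKO libraries, overlapped.

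Il13ra2 (ENSMUSG00000031289), on the X chromosome, encodes the decoy receptor that binds interleukin-13 without signalling on. It was at 15.8, 13.8 and 14.3 CPM in controls and 18.9, 9.39 and 16.0 CPM in cKO libraries. The highest and the lowest library were both cKO, so the groups overlapped. The fold was 1.01 with an interval from 0.690 to 1.47. Its ligand genes were near the floor, with 0 to 2 counts of Il13 and 1 to 9 counts of Il4 per library. The signalling receptor chain Il13ra1 had a log2 fold change of 0.08 ± 0.10 (SE), and Il4ra, the chain it pairs with, 0.42 ± 0.13. Il4ra stood at 71.6 to 83.9 CPM in controls and 95.9 to 127 CPM in cKO libraries, without overlap (background 6.93% of all genes, edgeR adjusted p = 0.747).

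Lrp2 (ENSMUSG00000027070) encodes megalin, a large endocytic receptor of epithelia that takes up vitamin and hormone carriers. Levels were 212, 409 and 249.8 CPM in controls and 165, 319 and 304 CPM in cKO libraries. Control 2 was the highest and cKO 1 the lowest, and the groups overlapped. A fold of 0.904, with an interval from 0.551 to 1.48, came out, and its direction turned without control 2 (log2 fold change 0.18) and without cKO 1 (0.10). Of its partners, the co-receptor Cubn had a log2 fold change of 0.43 ± 0.30 (SE), the adaptor Dab2 0.10 ± 0.12 and the chaperone Lrpap1 -0.15 ± 0.17. Amn, whose protein anchors cubilin in the membrane, was added here after its values were seen. It was at 0.308 to 1.09 CPM in controls and 1.47 to 1.79 CPM in cKO libraries, without overlap (background 6.93% of all genes). Its log2 fold change was 1.29 ± 0.43 (SE, edgeR adjusted p = 0.747). None of these partners passed the test.

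The calcitonin and CGRP receptor system was measured beside Calca. The CGRP receptor gene Calcrl stood at 0.23 ± 0.14 and its accessory proteins Ramp1, Ramp2 and Ramp3 at 0.16 ± 0.18, -0.21 ± 0.09 and -0.10 ± 0.33, as log2 fold change with SE. Ramp2, which turns the receptor towards adrenomedullin, was at 133 to 141 CPM in controls and 112 to 123 CPM in cKO libraries. Its groups did not overlap (background 5.78% of all genes with cKO below, edgeR adjusted p = 0.747). Calcr, the calcitonin receptor itself, had 0 counts in all 6 libraries. Over the whole list of 35 receptors, ligands, partners and paralogs, 26 were tested. Of these, 17 had a log2 fold change above 0 and 9 below (median 0.10), with 0 past the adjusted threshold. The cKO libraries lay above all controls for 3 of the 26 (6.93% of all genes) and below for 1 (5.78%).

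Gata2 (ENSMUSG00000015053) encodes a zinc finger transcription factor that acts with the progesterone receptor in the uterus. It was at 148, 142 and 138 CPM in controls and 100.4, 145 and 135 CPM in cKO libraries. Apart from cKO 1 the libraries lay within 135 to 148 CPM. The fold was 0.887, with an interval from 0.710 to 1.11, and the log2 fold change went from -0.17 to -0.03 without cKO 1. Gata6, a paralog, had 0.46 ± 0.25 (SE).

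Sox17 (ENSMUSG00000025902) encodes an HMG-box transcription factor of the endometrial epithelium and of endothelium. Controls 1, 2 and 3 gave 229, 199.9 and 157 CPM and cKO 1, 2 and 3 gave 121, 159 and 177 CPM. Control 3 lay below cKO 2 and cKO 3, so the groups overlapped. The fold was 0.779, with an interval from 0.588 to 1.03 (edgeR quasi-likelihood test, adjusted p = 0.747). Without cKO 1, the lowest library, the log2 fold change was -0.22 in place of -0.36. Sox7 and Sox18, its relatives in endothelium, had log2 fold changes of -0.33 ± 0.16 and -0.17 ± 0.11 (SE).

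Zbtb16 (ENSMUSG00000066687) encodes a zinc finger repressor known as a steroid-induced gene of the uterine stroma. Its mean was higher in the cKO libraries, with 26.0, 32.2 and 39.0 CPM in controls and 41.4, 41.0 and 40.2 CPM in cKO libraries. The 3 cKO libraries were nearly equal and lay just above the highest control. The fold was 1.26, with an interval from 1.00 to 1.59 (edgeR adjusted p = 0.747). Without control 1, the lowest library, the log2 fold change was 0.19 in place of 0.34. Stromal markers were higher beside it, 10 of 12 (median 0.45 on the log2 scale), and their summed levels were 11144 to 14879 CPM in controls and 15808 to 18958 CPM in cKO libraries. Most of that sum was the collagen genes Col1a1, Col1a2 and Col3a1. The cKO libraries lay above all controls for 7 of the 12 (6.93% of all genes). Pdgfra, Pdgfrb, Vim and Thy1 were near 0, with log2 fold changes of 0.11, 0.02, -0.02 and -0.09. Smooth muscle markers had a log2 fold change above 0 in 10 of 10 (median 0.54), at summed levels of 7482 to 13363 CPM and 12557 to 17271 CPM. For lymphocyte and NK markers it was 8 of 9 (median 0.66, but -0.33 without cKO 1), summed at 29.1 to 40.0 CPM and 45.5 to 52.9 CPM. The part of these tissues and cells in the Zbtb16 difference, or in the lower epithelial markers, was not tested.

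**Figure D2:**
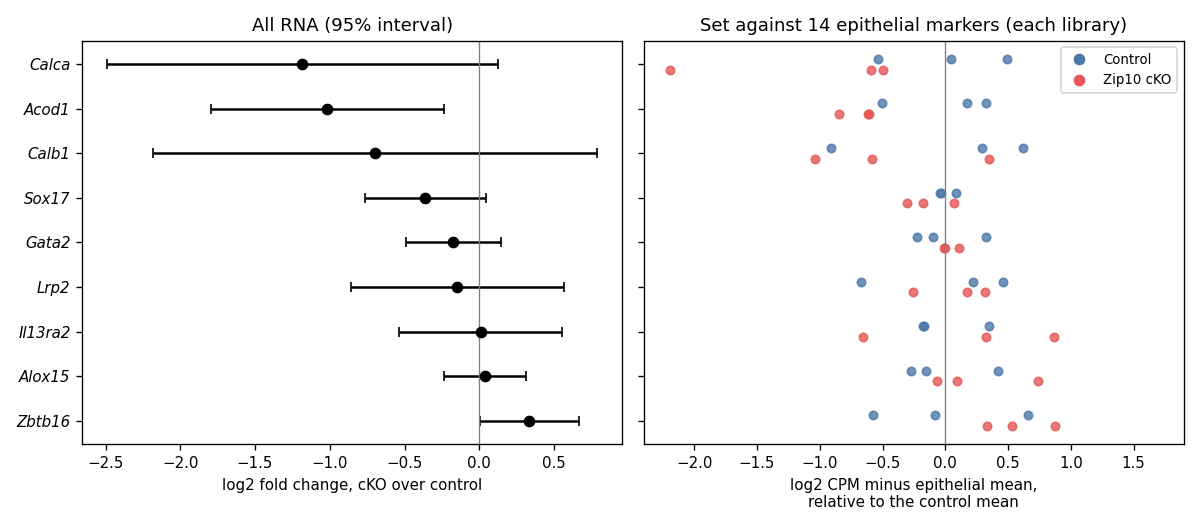
Left, log2 fold change of cKO over control for each gene with its 95% interval, from edgeR's fit to all genes. Right, each library's log2 CPM minus the mean of 14 epithelial markers, drawn relative to the control mean. The interval of Acod1 lies below 0 on the left, and on the right its 3 cKO libraries lie below all 3 controls.

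On the TPM scale, which corrects for transcript length, the order of the levels over the 6 libraries was Alox15 (mean 332), Sox17 (133), Gata2 (88.6), Calb1 (68.8), Acod1 (61.9), Lrp2 (23.9), Il13ra2 (13.9), Calca (10.1) and Zbtb16 (9.90). The lowest Alox15 library, at 305 TPM, lay above the highest of Sox17, at 162 TPM. Sox17 and Gata2 were also apart, at 97.6 TPM and above against 97.5 TPM and below, by a very small gap. Acod1 at its lowest, 37.7 TPM, lay above Lrp2 at its highest, 35.7 TPM. Gata2, Calb1 and Acod1 overlapped with their neighbours, as did Lrp2, Il13ra2, Calca and Zbtb16. The ranges of neighbours in this order were therefore apart at 3 of its 8 steps, and those of Sox17 and Gata2 nearly touched.

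The genes differed in how far they varied between libraries of the same group. Calca (SD of 0.97 on the log2 CPM scale), Calb1 (1.01), Acod1 (0.57) and Lrp2 (0.51) spread most, at or above a percentile of 89.1 among all tested genes. Gata2 (0.202) and Zbtb16 (0.206) were close to the median spread of all tested genes, 0.202, and Alox15 (0.136) was below it. Among genes of like mean expression the spread of Gata2 was at a percentile of 74.1, Zbtb16 at 75.5 and Alox15 at 43.9. The library cKO 1 was the lowest of the 6 for 5 genes (Acod1, Calca, Lrp2, Gata2 and Sox17) and the highest for 3 (Il13ra2, Alox15 and Zbtb16). Without it, 7 of the 9 had a log2 fold change below 0, with a median of -0.21.

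**Figure D3:**
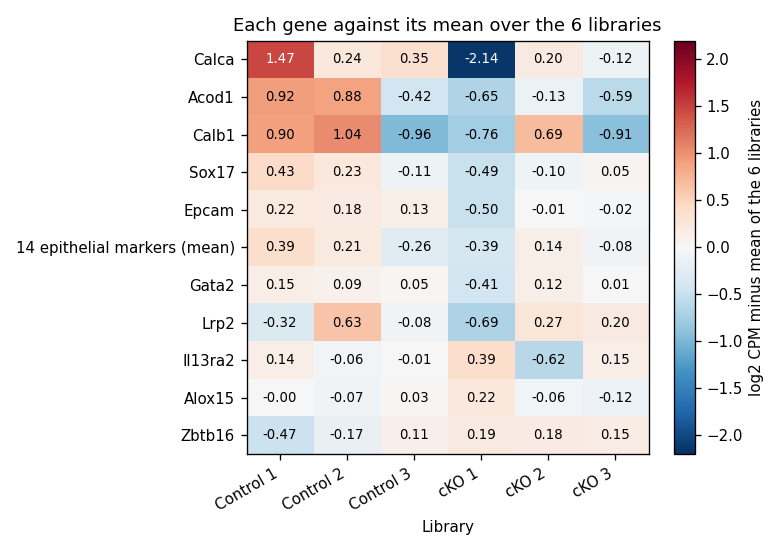
Each cell gives a library's log2 CPM minus the gene's mean over the 6 libraries, for the 9 targets, Epcam and the mean of 14 epithelial markers. Calb1 and Acod1 are above their mean in controls 1 and 2, Calb1 also in cKO 2, and cKO 1 is low for Calca, Lrp2, Sox17 and Gata2 as for Epcam.

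Most of these genes are transcribed in epithelium, so each was set against the epithelial RNA of the same library. For Zbtb16, named above as a gene of the stroma, this reference is not one of its own tissue. In bulk tissue, fewer cells of a type and less RNA per cell cannot be told apart. Epcam, an epithelial adhesion molecule, was at 105, 103 and 99.1 CPM in controls and 64.4, 90.1 and 89.6 CPM in cKO libraries. Of 14 epithelial markers, 12 had a log2 fold change below 0 (median -0.26, and -0.11 without cKO 1); summed, they stood at 1104 to 1644 CPM in controls and 908 to 1363 CPM in cKO libraries. Their mean log2 CPM was 6.15 ± 0.34 in controls and 5.93 ± 0.26 in cKO libraries (SD, n = 3 each), a difference within the spread (exact two-sided permutation test, p = 0.4). Pearson r with that mean over the 6 libraries was -0.60 for Alox15, -0.41 for Il13ra2 and -0.79 for Zbtb16, so these did not follow the markers. For the other targets it ran from 0.45 to 0.89. Once the marker mean was subtracted, 14.8% of all tested genes had a lower mean in cKO libraries.

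Relative to these markers, 4 of the 9 targets had a lower mean in the cKO libraries: Calca, Acod1, Calb1 and Sox17. Acod1 was at 1.21, 1.36 and 0.53 above the markers in controls 1 to 3 and at 0.42, 0.42 and 0.19 in cKO 1 to 3, in log2 units. The difference was -0.69, with all 3 cKO libraries below all 3 controls (exact two-sided permutation test, p = 0.1, the smallest that 3 against 3 can give); 0.633% of all genes lay below in this way, 3.08% lay above and 3.72% did either. With Epcam alone as the reference the groups overlapped again, at ratios of 1.89, 1.89 and 0.798 in controls and 1.05, 1.07 and 0.785 in cKO libraries, and the difference was -0.57 (exact permutation test, p = 0.3). Against Epcam 0.358% of all genes had every cKO library below every control, and 0 of the 9 targets did. Calca differed by -1.09 and Calb1 by -0.43, both with overlap (exact permutation test, p = 0.2 and p = 0.6). Single libraries set much of both values: Calca was at -0.55 without cKO 1, and Calb1 at -0.12 without control 2 or without cKO 3 and at -0.88 without control 3. Sox17 differed by -0.14 and Gata2 by 0.03 against the markers, and Sox17 by -0.01 against Epcam. Zbtb16, with 0.58, and Alox15, with 0.25, had higher means and overlapped; Zbtb16 was at 0.29 without control 1 and 0.91 without control 3, and Alox15 at 0.01 without cKO 1. Against Epcam alone Gata2 and Zbtb16 lay above the controls in all 3 cKO libraries, as did 34.3% of all tested genes. These were 9 comparisons against each reference.

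Cell types other than epithelium can also make these transcripts, and their markers were read in the same libraries. Acod1 is an inducible gene of activated macrophages. Macrophage markers were higher, 10 of 10 (median 0.60 on the log2 scale), at summed levels of 388 to 564 CPM in controls and 440 to 902 CPM in cKO libraries, opposite in direction to Acod1. Without cKO 1, their highest library, that median was 0.22. Activated myeloid genes were summed at 115 to 141 CPM and 120 to 155 CPM, most of it Slc7a2, a gene that other cells also express. Of the 7 tested, 4 were higher and 3 lower (median 0.33, and 0.007 without cKO 1). Tnf and Il1b, with the smallest p, had log2 fold changes of 1.01 ± 0.60 and 1.01 ± 0.65 (SE), both highest in cKO 1. Cxcl2 and Cxcl3 had at most 4 counts per library. Of 7 neutrophil markers 2 were tested, both higher (median 1.02, and 0.43 without cKO 1). Neutrophil sums were 8.50 to 12.9 CPM in controls and 8.65 to 40.4 CPM in cKO libraries. Nerve markers, read beside Calca for its neuropeptide CGRP, had summed levels of 4.99 to 6.24 CPM in controls and 5.25 to 6.42 CPM in cKO libraries. Of the 4 tested, 1 was higher and 3 lower (median -0.03). Prph, the higher one, had a log2 fold change of 0.77 ± 0.46 (SE), with overlap and 6 to 22 counts per library. The neurofilament genes Nefl and Nefm had at most 2 counts per library, while Uchl1 had 53 to 82 and a log2 fold change of -0.08 ± 0.23 (SE). Eosinophils, which can express Alox15, had 3 of 7 markers at 0 in all libraries (Epx, Ear1 and Ear6). Their summed levels were 3.78 to 5.01 CPM and 4.79 to 9.32 CPM. Among the 4 tested, 2 were higher and 2 lower (median 0.63, and 0.46 without cKO 1). Siglecf and Ccr3, with the smallest p, had log2 fold changes of 2.01 ± 0.60 and 1.34 ± 0.52 (SE). Both were highest in cKO 1, their groups overlapped, and neither passed the adjusted threshold. Mast cell markers, beside Gata2, were 5 of 6 higher with a median of 0.62, while their summed level was 417 to 566 CPM in controls and 342 to 486 CPM in cKO libraries. Nearly all of that sum was Hdc, which encodes the enzyme that makes histamine and is also expressed by uterine epithelium, and Kit; Hdc alone was at 338 to 495 CPM and 258 to 427 CPM. Without cKO 3 the median was 0.22. Cpa3, the mast cell gene with the smallest p, was at 0.659 to 1.28 CPM in controls and 1.43 to 3.03 CPM in cKO libraries. Endothelial markers, beside Gata2 and Sox17, were 11 of 11 below 0, with a median of -0.12; their sums of 1061 to 1293 CPM and 1033 to 1175 CPM overlapped. The part of these cell types in the results was not tested.

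Other genes of the progesterone pathway were described from a list of 35, all tested. Of these, 20 had a log2 fold change above 0 and 15 below (median 0.01), and 0 passed the adjusted threshold in either direction. At an unadjusted p under 0.05, 5 of the 35 were lower, where 1.98% of all tested genes were, and 1 was higher, where 4.48% were. The cKO libraries lay below all controls for 5 of them (5.78% of all genes) and above for 3 (6.93%). Pgr, the progesterone receptor, was at 144, 245 and 177 CPM in controls and 176, 178 and 159.5 CPM in cKO libraries, where only control 2 stood out. The 4 genes with the smallest p were Fst, which encodes the activin antagonist follistatin, Ihh, the hedgehog ligand of the epithelium, Hand2, a stromal transcription factor, and Ptger4, a prostaglandin receptor. Fst ran from 86.4 to 91.8 CPM in controls and from 65.8 to 74.1 CPM in cKO libraries, and Ihh from 74.9 to 82.1 CPM and from 38.1 to 62.3 CPM. Hand2 stood at 92.8 to 93.8 CPM and 72.4 to 85.4 CPM. For these 3 genes the controls were tighter than for Acod1, Calca or Calb1 and the groups did not overlap, while Ptger4 overlapped, at 49.9 to 70.5 CPM and 33.8 to 51.2 CPM. All 4 had an adjusted p of 0.747 in edgeR's test.

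**Figure D4:**
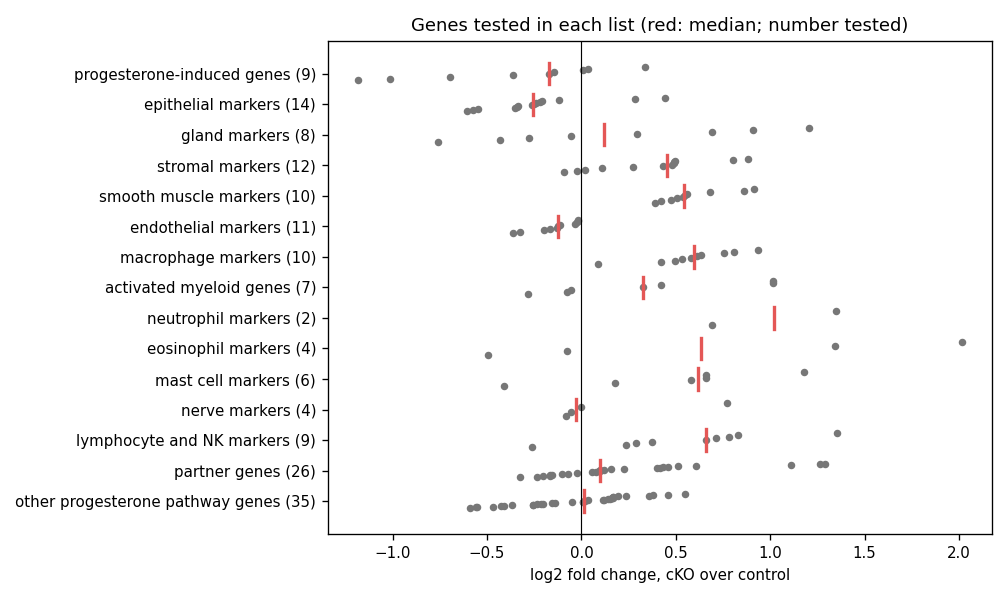
Log2 fold change of cKO over control for each tested gene of the 9 progesterone targets and of the lists set beside them (points), with each list's median in red and the number tested in brackets. The 9 targets spread from -1.18 to 0.34, and the medians of the epithelial, stromal and macrophage lists are -0.26, 0.45 and 0.60.

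The genes whose pattern over the 6 libraries was most like each target were found by Pearson correlation of log2 CPM among 10731 or 10732 named genes with a mean of at least 10 CPM. With so many genes and 6 libraries, the best r lies near 1 for any gene, so these are descriptions. Msx1, a homeobox gene of the uterine epithelium, was most like Sox17 (r = 0.997), at 211, 183 and 122 CPM in controls and 82.9, 126 and 141 CPM in cKO libraries. Gldc, which encodes glycine decarboxylase, was second for Calb1 (r = 0.993) after Poldip3 (r = 0.996), and it had the same split, with 20.6 to 22.3 CPM in controls 1 and 2 and cKO 2 and 5.10 to 6.42 CPM in the other 3. The pair most like Acod1 was Psmd3 (r = 0.994) and Slc16a12 (r = 0.989), a monocarboxylate transporter gene at 15.6, 17.0 and 8.26 CPM in controls and 6.89, 10.4 and 7.20 CPM in cKO libraries. Scin and Shisa3 were most like Gata2 (r = 0.995 and 0.989), Marc2 and Arfrp1 most like Calca (r = 0.997 and 0.996), and Fhdc1 and Peli2 most like Zbtb16 (r = 0.995 for each). For Alox15 they were Ddost and Ap1m1 (r = 0.993 and 0.990), for Lrp2 Afdn and Tet3 (r = 0.988 and 0.986), and for Il13ra2 Numbl and Cnot10 (r = 0.977 and 0.966).

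Some epithelial and gland genes, singled out after their values were seen, split the libraries as Calb1 does or the reverse. Krt19, a keratin, stood at 138, 108 and 42.1 CPM in controls 1, 2 and 3; in cKO 1, 2 and 3 the values were 70.5, 127 and 52.6 CPM. Prss28, a serine protease of the glands, was low where Calb1 was high, at 3.60 and 1.73 CPM in controls 1 and 2 and 3.13 CPM in cKO 2, and stood at 37.1 CPM in control 3, 12.7 CPM in cKO 1 and 52.8 CPM in cKO 3. This split crosses the groups.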

How the data were processed

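The 6 libraries were grouped by their titles. Libraries were made from poly(A) RNA, per the labels. The submitters' processing notes name RSEM 1.3.3, STAR 2.7.10a, fastp 0.23.2, edgeR 3.38.4 and R 4.2.1, with the build GRCm39. For the annotation release and strand setting, nothing is given in those notes. The authors deposited expected counts, in which reads shared by genes are split, and TPM, which keep no depth, per the file headers. Of the gene rows, 91.8% had a symbol among the names of GENCODE M21. In RefSeq (GRCm38.p6), 4 of the 9 genes overlap another gene by their outer coordinates (Acod1, Alox15, Gata2 and Zbtb16). Strand and exons of these overlaps were not compared, so whether reads are shared there was not tested.

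Expected counts were rounded, filtered by filterByExpr (minimum count 10, minimum total 15), scaled by TMM and tested by edgeR 4.0.16's robust quasi-likelihood test in R 4.3.3, two-sided, with Benjamini-Hochberg adjustment over 16737 genes. SE and intervals come from the F statistic. Values set against epithelium are log2 CPM (prior count 2) minus the mean of 14 markers. Alternatives used DESeq2 1.42.0, limma 3.58.1, other scalings and filters, TPM with pseudocounts 1 and 0.1, a replicate block, other references and each library left out. The test was checked on simulated counts, and no library pair was alike within sampling noise (chi-square per degree of freedom at least 14.2). Genes named were the 9 targets, Epcam, Slc39a10, their direct partners, Pgr and the 4 pathway genes with the smallest p, up to 2 per cell type list, and the 2 genes most like each target. Outside that rule, and after their values were seen, Amn, Krt19, Prss28 and cell type genes that were at or near 0 (Epx, Ear1, Ear6, Cxcl2, Cxcl3, Nefl, Nefm, Calcr) or that carried a summed level (Slc7a2, Hdc, Kit) were named. So were Spink1 and the stromal markers Col1a1, Col1a2, Col3a1, Pdgfra, Pdgfrb, Vim and Thy1. Members and lists were chosen with earlier results of these data known. Figures were drawn with matplotlib 3.10.9.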

Additional observations from a re-analysis of the deposited data

How the results depend on the processing

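At an unadjusted p under 0.05 the quasi-likelihood test had 1081 genes, and after adjustment 0. DESeq2 called 38, edgeR's likelihood ratio test 30 and the quasi-likelihood test with no filter 15; with each library left out it called 0 to 2, the 2 without cKO 1. None of these settings brought any of the 9 targets past the threshold. limma-voom called 0, with 1066 at an unadjusted p under 0.05. The count of targets below 0 was 6 or 7 in every setting, and 4 to 6 relative to epithelial markers. Near-zero fold changes turned sign: Il13ra2 was -0.055 with limma-voom, and with each library left out it ran from -0.21 to 0.25, Lrp2 from -0.33 to 0.18 and Alox15 from -0.077 to 0.10. Relative to epithelial markers, leaving out each library gave -0.26 to 0.30 for Lrp2, -0.17 to 0.60 for Il13ra2 and -0.079 to 0.20 for Gata2. With the replicate number as a block, 0 genes were called, with 1354 at an unadjusted p under 0.05, and Il13ra2 was -0.038. Deviations of same-numbered libraries correlated at 0.09, 0.25 and 0.18, and those of differently numbered libraries at -0.32 to 0.12. The sample cKO 1 correlated best with control 3 (0.12), not with its own number. The labels do not say what a number shares, so the main test did not pair the samples. Whether a number marks a shared batch was not tested. The causes were not tested. Calca had the fewest counts of the 9 targets, 17 to 224 per library.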
